A study of Mus musculus with 9 samples.

Results

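The 8 genes described here, H2-Aa, H2-Ab1, H2-Eb1, Cd74, Ciita, H2-DMa, H2-DMb1 and Cd86, carry antigen presentation by MHC class II and one arm of its costimulation. They were taken by exact gene symbol from a table of 22482 genes of mouse brain RNA. Each gene had a value in all 9 libraries, and 7 of the 8 reached an FPKM (fragment density per unit of transcript length, scaled to the library) of at least 0.5 in at least 3 libraries, the minimum for a test. Ciita did not, so it is given by its values. H2-Aa reached the minimum through the injured libraries alone, since all 3 of its Sham values lay below 0.5.

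The study compared 3 groups of 3 mouse brain libraries. In Sham mice the skull was drilled and the dura opened without damage to the brain, and the tissue came from the matching site. TBI mice received a traumatic brain injury from a falling weight, and tissue was taken from the injured area. The C-β-LG/DSF mice had the same injury and then received C-β-LG/DSF, a nanoparticle preparation, through a tail vein. Every treated mouse was therefore also an injured mouse, and no group is labelled as injected without the preparation. The sources used here give no strain, age, sex, dose or time after injury. Nor do the labels state whether each library is a different animal, so the p-values reflect the spread of these samples alone, which may be technical.

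MHC class II molecules are cell-surface pairs of an alpha and a beta chain that show peptides from engulfed proteins to CD4+ T cells. H2-Aa and H2-Ab1 encode the chains of the mouse molecule I-A, and H2-Eb1 encodes the beta chain of I-E. Cd74, the invariant chain, escorts new class II molecules to endosomes, where H2-DMa and H2-DMb1 form the H2-DM complex that trades the last fragment of Cd74 for a peptide. Ciita is the transactivator without which class II genes are hardly transcribed. It binds no DNA itself but is held at class II promoters by the factors seated on the X and Y boxes. Cd86 is a ligand of Cd28 and Ctla4, which gives T cells the second signal. In the healthy brain microglia carry little class II, and border macrophages and dendritic cells carry more.

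The promoters of H2-Aa, H2-Eb1 and H2-DMb1 are shown because they hold the X and Y box letters at nearly the same spacing in 3 genes whose values differ in stability among the injured libraries. Each line is the 200 bases from 150 before to 50 after the gene's start in RefSeq on GRCm38.p6, on the gene's own strand. Capitals mark X box letters CTNGNAAC and Y box letters GATTGG, searched on both strands.
H2-Aa, chr17:34287774-34287973, minus strand: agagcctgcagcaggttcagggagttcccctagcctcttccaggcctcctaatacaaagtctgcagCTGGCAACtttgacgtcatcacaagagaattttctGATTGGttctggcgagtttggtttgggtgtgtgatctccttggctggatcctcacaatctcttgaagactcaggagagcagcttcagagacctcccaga
H2-Eb1, chr17:34305717-34305916, plus strand: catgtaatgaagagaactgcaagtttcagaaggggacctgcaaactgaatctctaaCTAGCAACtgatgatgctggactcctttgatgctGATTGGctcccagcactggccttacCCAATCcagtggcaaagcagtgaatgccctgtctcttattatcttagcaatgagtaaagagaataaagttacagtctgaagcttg
H2-DMb1, chr17:34153041-34153240, plus strand: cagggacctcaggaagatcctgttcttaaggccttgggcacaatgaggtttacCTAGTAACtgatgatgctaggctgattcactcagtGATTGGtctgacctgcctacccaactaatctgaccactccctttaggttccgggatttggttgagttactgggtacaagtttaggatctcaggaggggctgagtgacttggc

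The X letters began 84 bases before the start in H2-Aa, 94 before in H2-Eb1 and 97 before in H2-DMb1. Between them and the Y letters lay 27 bases in H2-Aa and H2-DMb1 and 26 in H2-Eb1, and H2-Eb1 held a second Y match on the other strand. Of 32851 mouse promoter windows from 250 bases before to 50 after a start, 13.2% held the X letters, 16.1% held the Y letters, and 34 (0.103%) held X letters followed after 10 to 30 bases by Y letters on the same strand. Those 34 included the 3 windows shown and that of H2-Ob, which encodes a chain of the H2-DM inhibitor H2-O. These letters were chosen with the sequences in view, and a match describes letters and not a bound site. The 2 windows listed for H2-DMa held no X match. Both (200 bases from 34122682 and from 34125368) lie upstream of 34135182, where the measured gene begins. The sequence beside that start was not searched, so no X box is shown to be absent there. Windows of H2-Ab1, Ciita, Cd86 and Cd74 are not shown.

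FPKM totals ran from 406274 to 445404 per library, and 12566 to 13312 genes reached an FPKM of 1. Fragment counts are not given, so the depth behind an FPKM is unknown, and the precision of each value is known only from the interval that the authors' program printed beside it. Snap25, a neuronal gene, was at 467 to 1470 FPKM in all libraries. In TBI against Sham, 4 of 5 astrocyte markers rose and 3 of 6 neuronal markers fell, against 14.9% and 12% of all tested genes. TBI 3 and replicates 2 and 3 of C-β-LG/DSF stood apart by 10 thalamic marker genes (Tcf7l2, Prkcd, Lef1 and others, a list chosen after the values were known), whose mean lay 2.28, 1.77 and 1.15 above Sham on the log2 scale. The other injured libraries lay 0.127 to 0.277 above Sham. Results without these 3 libraries are given where they change a call. That fit, added after the data were seen, keeps a lone C-β-LG/DSF library, which is assumed to vary like the other groups. In bulk tissue, fewer cells of a type and less RNA per cell cannot be told apart, for any value below.

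The chains of I-A were low in Sham and higher in every injured library. H2-Aa (ENSMUSG00000036594.14, chromosome 17, 34282744 to 34287827) was at 0.251, 0.333 and 0.320 FPKM in Sham, at 2.66, 2.39 and 2.49 in TBI and, with C-β-LG/DSF, at 1.71, 1.08 and 1.68. The 3 groups did not overlap, and the TBI libraries lay closer together than those of most genes. H2-Ab1 (ENSMUSG00000073421.5, chromosome 17, 34263209 to 34269418) was at 0.769, 0.601 and 0.317 FPKM in Sham, at 3.96, 3.4 and 4.05 in TBI and, with C-β-LG/DSF, at 1.83, 1.05 and 1.72. Again no value of one group fell within another, with the treated libraries between Sham and TBI.

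H2-Eb1 behaved differently from the I-A chains. H2-Eb1 (ENSMUSG00000060586.10, chromosome 17, 34305877 to 34316199) was at 0.266, 0.910 and 0.218 FPKM in Sham, at 9.09, 0.921 and 0.109 in TBI and, with C-β-LG/DSF, at 1.13, 2.1 and 1.13. TBI 1 held the highest and TBI 3 the lowest of all 9 values, an 83.3-fold span inside the group. The authors' interval of TBI 1, 2.70 to 15.5 FPKM, lay above the upper bounds of TBI 2 (2.19) and TBI 3 (0.353). The SD of the TBI libraries, 2.04 on the log2(FPKM + 0.5) scale, was at percentile 99.9 of the tested genes, whereas those of H2-Ab1 (0.12) and H2-Aa (0.07) were at percentiles 23.5 and 8.4. An antisense gene, Gm20513, overlaps H2-Eb1 in GENCODE M21, and the sources do not say whether strand was used in counting.

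The ratio of H2-Eb1 to H2-Ab1, both per length, was 2.30 in TBI 1, 0.271 in TBI 2 and 0.0270 in TBI 3. In C-β-LG/DSF it was 0.618, 2.0 and 0.656, and in Sham 0.345, 1.52 and 0.687. The ratio of H2-Aa to H2-Ab1 stayed between 0.615 and 0.703 in TBI and between 0.938 and 1.03 in C-β-LG/DSF, and was 0.326, 0.554 and 1.01 in Sham. The I-A ratio was thus narrow within each injured group but not in Sham, and that of H2-Eb1 was narrow in no group.

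The invariant chain was the most abundant of the 8 genes in each TBI library. Cd74 (ENSMUSG00000024610.14, chromosome 18, 60803848 to 60812646) was at 3.68, 3.60 and 1.58 FPKM in Sham, at 24.5, 10.8 and 12.9 in TBI and, with C-β-LG/DSF, at 8.03, 6.61 and 7.33. The groups did not overlap, and TBI 1 stood well above TBI 2 and TBI 3.

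The genes of the peptide exchanger were less uniform. H2-DMa (ENSMUSG00000037649.9, chromosome 17, 34135182 to 34139101) was at 7.02, 7.78 and 7.59 FPKM in Sham, at 11.8, 10.3 and 5.37 in TBI and, with C-β-LG/DSF, at 10.1, 9.63 and 6.79. It was the most abundant member in Sham, and the lowest library of each injured group lay below all of Sham. H2-DMb1 (ENSMUSG00000079547.3, chromosome 17, 34153072 to 34160230) was at 0.639, 0.209 and 0.301 FPKM in Sham, at 1.97, 1.88 and 0.302 in TBI and, with C-β-LG/DSF, at 0.412, 1.29 and 0.764. TBI 3 lay inside the Sham range for H2-DMb1 while the other TBI libraries lay above it. Of the 50-base stretches of H2-DMb1 transcripts, 22.7% also occur in the neighbouring H2-DMb2, so the split of reads between them is uncertain.

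The transactivator was scarce throughout. Ciita (ENSMUSG00000022504.9, chromosome 16, 10488178 to 10543054) was at 0.113, 0.163 and 0.179 FPKM in Sham, at 0.428, 0.316 and 0.220 in TBI and, with C-β-LG/DSF, at 0.202, 0.154 and 0.0922. All TBI values lay above all values of the other groups, but the authors' interval reached 0 in all 9 libraries. With no minimum on FPKM, limma, a linear model with variances shared across all genes, gave a difference of 0.33 (SE 0.11) between TBI and Sham, with an adjusted p of 0.0658. Dexi, which overlaps Ciita on the opposite strand, was at 29.3 to 44.9 FPKM.

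Costimulation was followed through Cd86. Cd86 (ENSMUSG00000022901.13, chromosome 16, 36603869 to 36666077) was at 0.552, 0.552 and 0.560 FPKM in Sham, at 4.85, 3.34 and 2.46 in TBI and, with C-β-LG/DSF, at 2.21, 1.68 and 1.99. Sham hardly varied, and the groups did not overlap. The authors' interval reached 0 in 9 of 9 libraries for H2-Aa and H2-DMb1, 8 for H2-Eb1, 7 for H2-Ab1, 5 for Cd86, 1 for Cd74 and none for H2-DMa. Inside TBI, replicate 1 was highest for 7 of the 8 genes, all but H2-Ab1. TBI 3 was lowest for 5 genes, and TBI 2 for the other 3, H2-Aa, H2-Ab1 and Cd74.

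**Figure D1:**
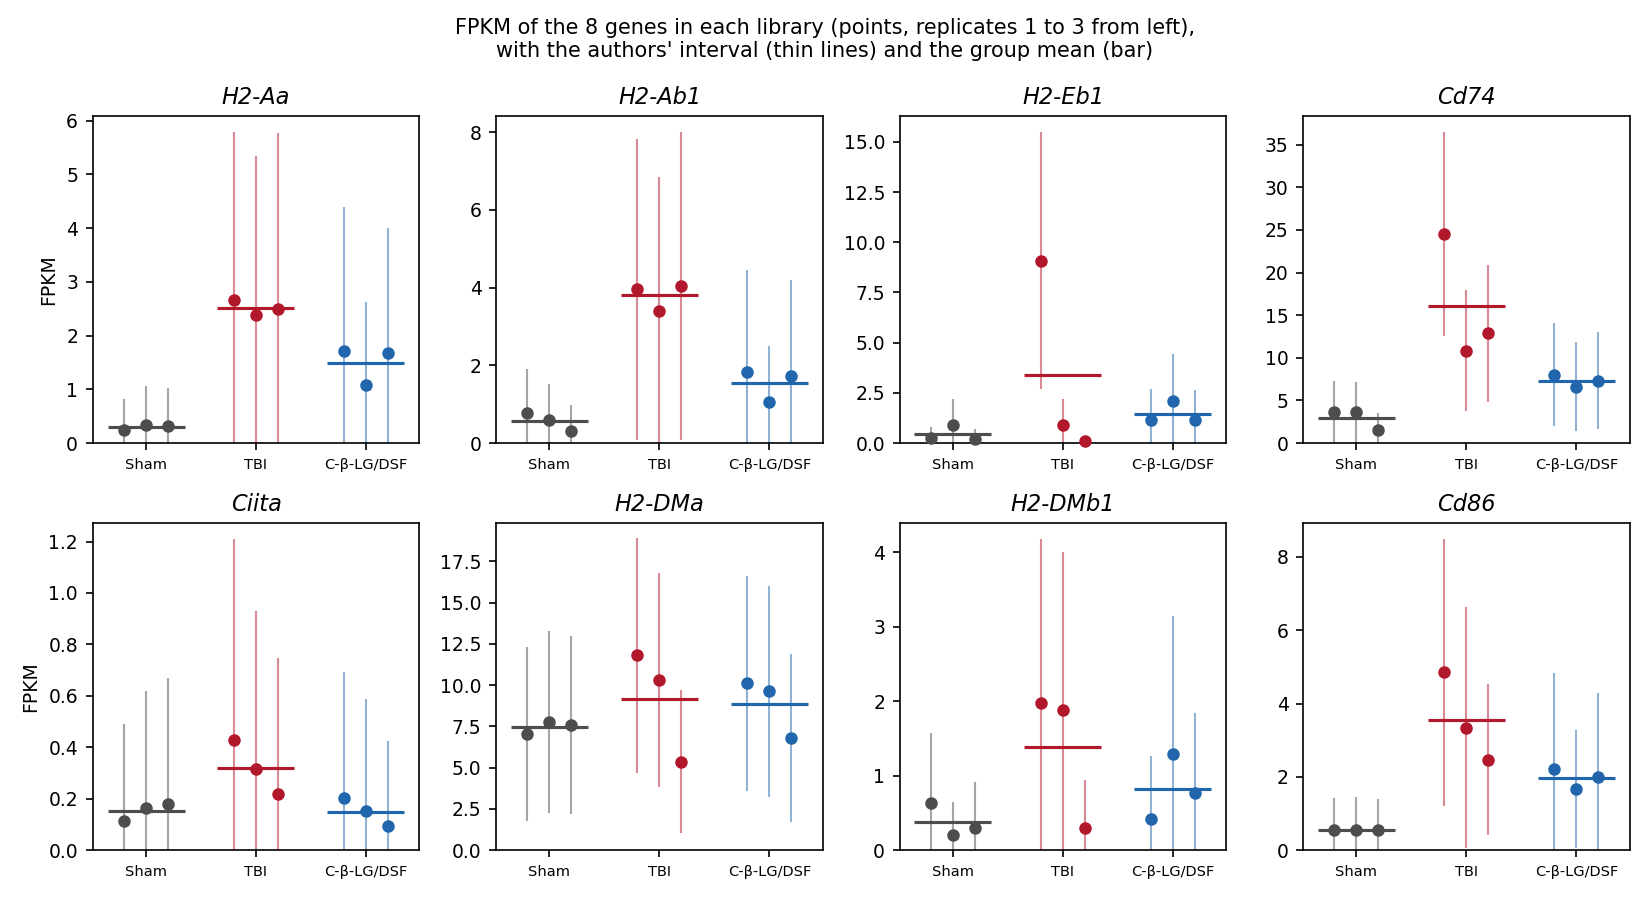
FPKM of each of the 8 genes (y axes, 1 panel a gene, each with its own scale from 0) in the 3 libraries of each group, as points with the authors' interval as thin lines and the group mean as a bar. H2-Aa, H2-Ab1, Cd74 and Cd86 separate into 3 groups, while the TBI points of H2-Eb1 run from 0.109 to 9.09.

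The I-A chains, the invariant chain and Cd86 were higher in TBI than in Sham. On the log2(FPKM + 0.5) scale, which understates the change of low genes, limma gave a TBI minus Sham difference of 2.24 (SE 0.33, adjusted p 0.00217) for Cd74. H2-Ab1 rose by 2.04 (SE 0.22, adjusted p 0.00085) and H2-Aa by 1.91 (SE 0.18, adjusted p 0.000591). Cd86 rose by 1.90 (SE 0.21, adjusted p 0.000982).

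These 4 of the 7 tested genes passed the threshold of an adjusted p under 0.05, against 14.9% of all 14292 tested genes called higher. H2-Aa, counted here and in the later comparisons with Sham, entered the test through its injured libraries alone, which favours a higher call. The same 4 had TBI values all above Sham, which held for 22.6% of tested genes, and all 4 kept the call under each of 18 alternative settings. The median difference was 1.90 over the 7 genes and 0.01 over all tested genes.

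The 3 remaining tested genes did not pass in TBI against Sham. H2-Eb1 differed by 1.14 (95% interval -0.71 to 2.99, limma adjusted p 0.34), H2-DMb1 by 0.95 (-0.04 to 1.95, adjusted p 0.144) and H2-DMa by 0.21 (-0.37 to 0.79, adjusted p 0.583). Those intervals leave room for a sizeable rise as well as for none. Without TBI 3, H2-DMb1 differed by 1.49 (limma adjusted p 0.00873) and H2-DMa by 0.53 (adjusted p 0.0384), both past the threshold. Without all 3 libraries high in thalamic markers these differences are the same by arithmetic, since of the 3 only TBI 3 enters this comparison. Without TBI 1, H2-Eb1 differed by 0.02, and without TBI 3 by 2.01 (adjusted p 0.0552), so its mean difference rested on single libraries.

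C-β-LG/DSF libraries lay below TBI for the same 4 genes, but no gene passed the test. limma gave a C-β-LG/DSF minus TBI difference of -1.10 for H2-Ab1 (95% interval -1.59 to -0.61, unadjusted p 0.000631). Cd74 differed by -0.999 (-1.74 to -0.26, p 0.0137), Cd86 by -0.68 (-1.16 to -0.20, p 0.0103) and H2-Aa by -0.61 (-1.01 to -0.22, p 0.00646). Each had an adjusted p of 0.394 in limma.

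Called genes numbered 0 of 14292 in this comparison (0%), with a smallest adjusted p of 0.361, while 1693 (11.8%) had an unadjusted p under 0.05. All values of the treated group lay below all of TBI for H2-Aa, H2-Ab1, Cd74 and Cd86, 4 of 7 tested genes, and this held for 9.28% of all tested genes. Untested Ciita was also lower in each treated library. Leaving out single libraries moved Cd74 between -1.23 and -0.66 and Cd86 between -0.89 and -0.46, the smallest size in both without TBI 1.

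For the other members the treated and untreated injured libraries overlapped. H2-DMb1 differed by -0.40 (95% interval -1.39 to 0.60, limma adjusted p 0.71) and H2-Eb1 by -0.09 (-1.94 to 1.76, adjusted p 0.972). The difference of H2-DMa was 0.0022 (-0.58 to 0.58, adjusted p 0.998).

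Treated tissue was still above Sham for the same 4 genes. The limma difference of C-β-LG/DSF minus Sham was 1.30 (SE 0.18, adjusted p 0.00322) for H2-Aa and 1.22 (SE 0.21, adjusted p 0.00807) for Cd86. Cd74 rose by 1.24 (SE 0.33, adjusted p 0.0375) and H2-Ab1 by 0.94 (SE 0.22, adjusted p 0.0235). These 4 of 7 compare with 6.37% of all tested genes called higher, and again include H2-Aa, tested through its injured libraries alone.

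The calls of H2-Aa and Cd86 held in 18 of 18 alternatives, that of H2-Ab1 in 13 and that of Cd74 in 10. Cd74 lost its call without any single Sham or C-β-LG/DSF library (largest adjusted p 0.115), and H2-Ab1 without Sham 2, Sham 3 or replicate 1 or 3 of C-β-LG/DSF. Without the 3 libraries high in thalamic markers, H2-Aa alone passed (1.47, limma adjusted p 0.0362), and Cd86 differed by 1.36 (adjusted p 0.0559), H2-Ab1 by 1.16 (adjusted p 0.115) and Cd74 by 1.37 (adjusted p 0.252). H2-Eb1 lay above Sham in each treated library, at a difference of 1.05 (limma adjusted p 0.428). The fit shares its variance over all 3 groups, so the wide TBI spread of H2-Eb1 enters this p-value. It was called in 1 of 18 alternatives (limma adjusted p 0.0453). With H2-Eb1, 5 of 7 tested genes had treated values all above Sham, against 22% of all tested genes. The TBI and Sham libraries each serve in 2 of the 3 comparisons, so these are not independent of each other.

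**Figure D2:**
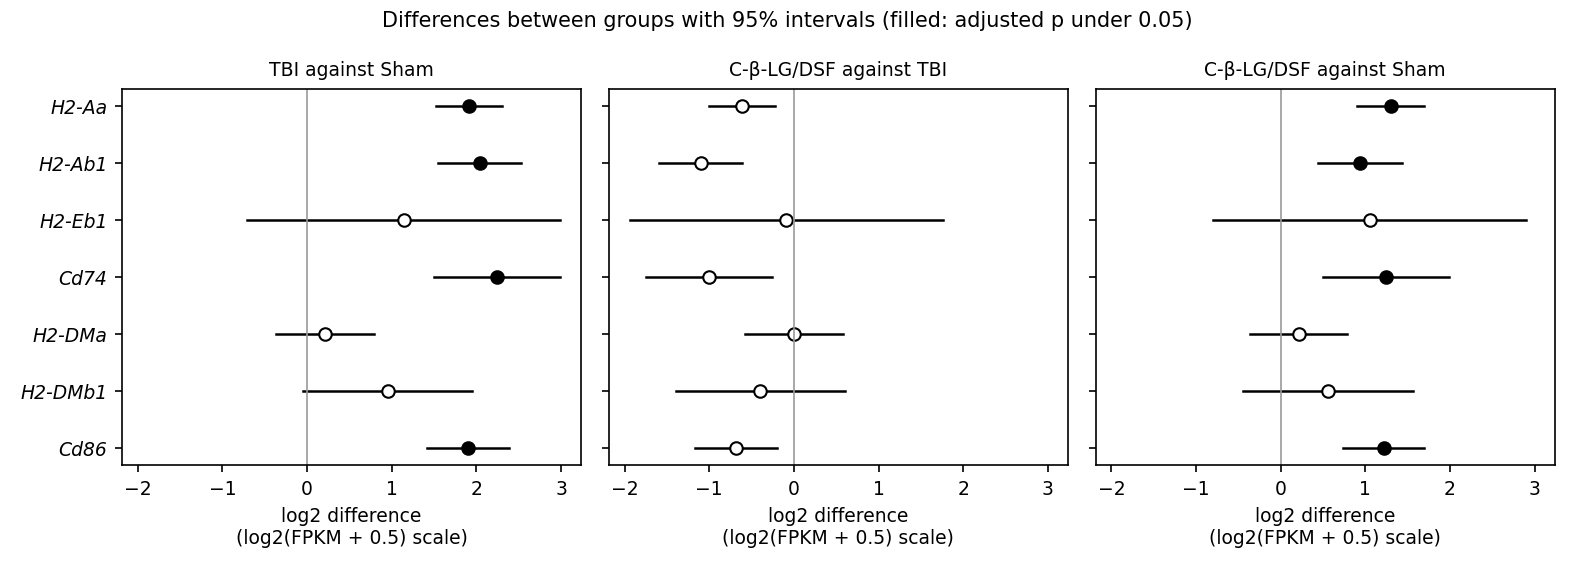
Log2 difference between groups (x axis, log2(FPKM + 0.5) scale) of the 7 tested genes (y axis) in the 3 comparisons, with 95% intervals of the limma fit and filled points at an adjusted p under 0.05. The same 4 genes are filled in both comparisons with Sham, and no point is filled for C-β-LG/DSF against TBI.

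**Figure D3:**
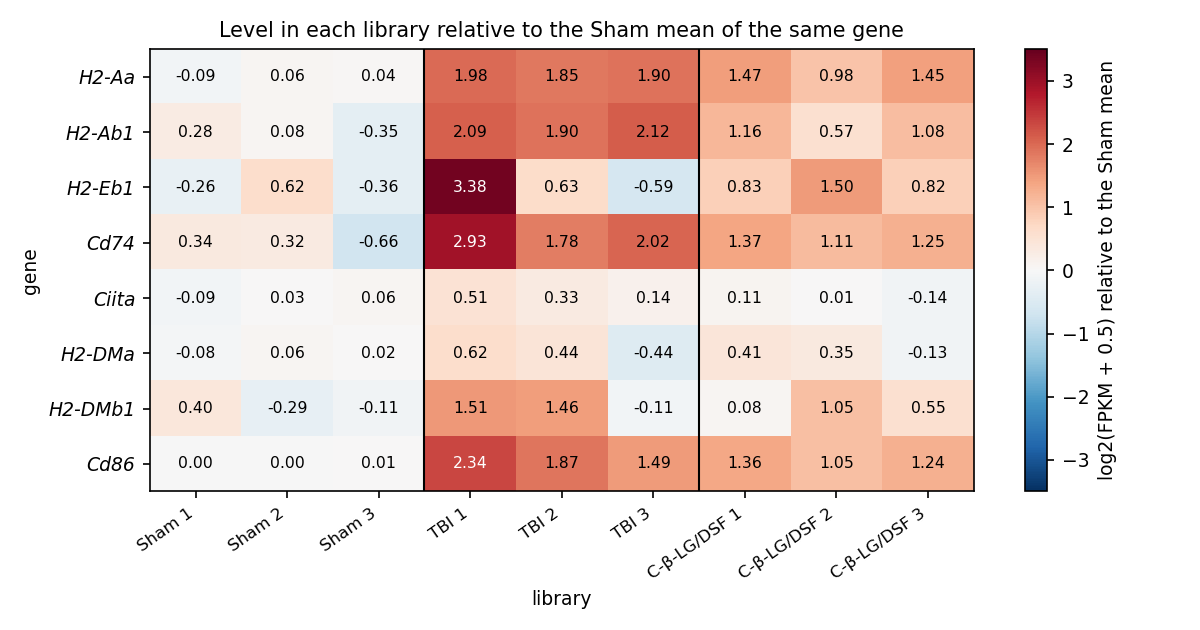
Level of each of the 8 genes (y axis) in each library (x axis) as log2(FPKM + 0.5) relative to the gene's Sham mean, with colour and number giving the value. The row of H2-Eb1 runs from 3.38 in TBI 1 to -0.59 in TBI 3, while H2-Aa lies between 1.85 and 1.98 in all TBI libraries.

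The remaining class II genes were scarce, with 4 of 5 listed genes in the table and 2 of them tested. H2-Ob rose in TBI by 1.38 (limma adjusted p 0.0203), from 0.152, 0.821 and 0.184 FPKM in Sham to 3.07, 1.37 and 1.06, and was at 0.450, 0.501 and 0.576 in C-β-LG/DSF. H2-DMb2, a second H2-DM beta chain, rose by 1.197 (adjusted p 0.012), from at most 0.111 FPKM in Sham to between 0.416 and 1.31 in TBI, and like H2-Aa it reached the minimum for a test through injured libraries alone. H2-Oa, the partner of H2-Ob, stayed under 0.8 FPKM and H2-Eb2 under 0.13 in all libraries, and neither was tested. H2-Ea is not analysed here.

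Most factors that seat Ciita on class II promoters did not pass in TBI against Sham. Of 7 listed factors of the X and Y boxes, none rose and 1 fell in TBI, against 14.9% and 12% of all tested genes. Counts this small do not set the factors apart from those shares. Their median difference was 0.04. Nfyb, a subunit of the Y box factor NF-Y, fell by 0.46 (SE 0.12, limma adjusted p 0.0234). Nfya, another NF-Y subunit, was higher by 0.61 (95% interval 0.04 to 1.18, limma adjusted p 0.106), which did not pass. Rfx5, the X box subunit that contacts Ciita, differed by -0.03 (95% interval -0.30 to 0.25, adjusted p 0.888).

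Upstream of Ciita, 4 of 9 tested genes of the interferon-gamma route and of myeloid Ciita control rose in TBI, and none fell (median 0.63), against 14.9% of all tested genes called higher and 12% called lower. Spi1, the myeloid factor PU.1, rose by 2.45 (limma adjusted p 0.00164) and Irf8 by 2.35 (adjusted p 0.00168). Ifngr1, a chain of the interferon-gamma receptor, rose by 0.94 (adjusted p 0.00841) and Irf1, which binds a Ciita promoter, by 0.74 (adjusted p 0.0436). Ifng, the cytokine itself, was listed at 0 in 8 libraries and at 0.0681 FPKM in TBI 3.

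All 6 measured genes of endosomal processing rose in TBI, against 14.9% of all tested genes called higher, with a median difference of 1.42. Ctss, the protease that trims Cd74, went from 47.5, 54.9 and 40.0 FPKM in Sham to 234, 204 and 150 in TBI, and was at 103, 99.9 and 132 in C-β-LG/DSF. Its difference was 2.02 in TBI against Sham (limma adjusted p 0.000591) and -0.80 in C-β-LG/DSF against TBI (unadjusted p 0.00178, adjusted p 0.394). Ctsd and Lgmn, further endosomal proteases, rose by 2.71 and 1.67 in TBI. Treated tissue had 3 of the 6 above Sham by the same test, against 6.37% of all tested genes.

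March1 encodes a ubiquitin ligase that removes class II and Cd86 from the surface of resting cells, and its values ran another way. It was at 6.03, 6.69 and 6.83 FPKM in Sham, at 5.77, 7.21 and 5.95 in TBI and, with C-β-LG/DSF, at 9.54, 8.22 and 7.67. The treated libraries lay above both other groups, at 0.40 above TBI (95% interval 0.12 to 0.68, limma unadjusted p 0.00984, adjusted p 0.394), which did not pass. Treated values all above TBI were seen in 5.97% of all tested genes.

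Among 10 tested costimulatory and coinhibitory ligands other than Cd86, 5 rose in TBI and none fell (median 0.99). Of all tested genes, 14.9% were called higher and 12% lower. Icam1, the adhesion ligand of LFA-1, rose by 2.12 (limma adjusted p 0.00117), Lgals9, a ligand of Havcr2, by 1.99 (adjusted p 0.00185) and Icosl, the ligand of Icos, by 1.38 (adjusted p 0.00233). Cd40 and Cd274 (PD-L1) differed by 0.43 (adjusted p 0.267) and 0.32 (adjusted p 0.265) and did not pass. Cd80, the other ligand of Cd28, lay between 0.042 and 0.309 FPKM in all libraries, against 0.552 to 4.85 for Cd86, and was not tested. In C-β-LG/DSF against TBI all 10 differences were negative and none was called (median -0.57), that of Icosl lying at -0.0011 (95% interval -0.47 to 0.47).

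On the T cell side, 4 of 12 listed receptors were tested, and 3 rose in TBI, against 14.9% of all tested genes called higher. Havcr2 (Tim-3) rose by 2.03 (limma adjusted p 0.00389), Pdcd1 (PD-1) by 1.23 (adjusted p 0.00397) and Lag3, which binds class II, by 1.05 (adjusted p 0.0206). Pdcd1 reached the minimum for a test through the TBI libraries alone (0.734 to 1.17 FPKM, against at most 0.364 elsewhere). All 3 are also found on cells other than T cells. Cd28 ran from 0 to 0.340 FPKM and Ctla4 from 0 to 0.146, both too low for a test. Of the CD3 chains that T cells carry, Cd3e was at 0 in all 3 Sham libraries and between 0.0569 and 0.246 FPKM in the injured ones. Cd3d and Cd3g did not follow that split, each listed at 0 in some libraries of Sham and of the treated group, with at most 0.152 and 0.188 FPKM.

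Markers of microglia, of monocytes and macrophages and of border macrophages mostly moved with the class II genes. The part of these and other cell types in the results was not tested. The summed FPKM of 10 homeostatic microglia genes lay between 144 and 190 in Sham, between 350 and 577 in TBI and between 249 and 358 after treatment, and all 10 rose in TBI. That of 8 monocyte and macrophage genes was 11.8 to 28.3, 229 to 492 and 77.0 to 138 in the same order of groups, with 4 of 6 tested genes called higher in TBI. Both counts compare with 14.9% of all tested genes called higher. Lyz2 held most of that sum in the injured libraries (53.9 to 433 FPKM) and little of it in Sham (3.29 to 4.41). Ccr2, the defining monocyte marker, was at 0.0330 to 0.0634 FPKM in Sham and 0.190 to 1.55 in TBI, the highest in TBI 1. Ly6c2, another monocyte marker, ran the other way, at 5.96, 19.7 and 15.8 FPKM in Sham against 1.81, 11.7 and 0.345 in TBI, a difference of -2.16 that did not pass (limma adjusted p 0.0821).

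Border macrophage genes, 6 in number, summed to 3.94 to 8.07 FPKM for Sham, 18.2 to 49.6 for TBI and 12 to 17.9 after treatment. Of these 6 genes, 3 rose in TBI, against 14.9% of all tested genes called higher. TBI 1, the library with the highest H2-Eb1 and Cd74, also held the highest Mrc1, at 5.52 FPKM against 1.22 and 1.54 in the other TBI libraries. Sham values were 1.09, 1.92 and 0.723, and Mrc1 was not among the genes that rose (limma adjusted p 0.255). TBI 1 also had the highest summed FPKM of the monocyte and macrophage, endosomal, astrocyte and B cell genes, so this is not particular to Mrc1. The 10 dendritic cell genes summed to 144 to 176, 115 to 132 and 108 to 139 FPKM. Nearly all of it was Fscn1, which neurons also express. Of 6 tested genes 1 rose and 2 fell in TBI, against 14.9% and 12% of all tested genes. Those that fell were Zbtb46, by 0.53 (limma adjusted p 0.0261), and Fscn1, by 0.40 (adjusted p 0.041). The defining markers Xcr1 and Clec9a stayed at or under 0.257 FPKM. Itgax, the gene that rose, was at 0.0731 to 0.183 FPKM in Sham, 1.68 to 2.17 in TBI and 0.792 to 1.19 after treatment. Its difference in TBI against Sham was 1.91 (limma adjusted p 0.000684). Itgax reached the minimum for a test through injured libraries alone. Untested Ccr7 was at most 0.0398 FPKM in Sham, 0.198 to 0.298 in TBI and at most 0.0723 after treatment. The 7 B cell genes summed to 0.350 to 0.746, 1.75 to 4.63 and 1.14 to 1.87 FPKM, with Ms4a1, a defining marker, at or near 0 in every library, at most 0.0403. Cd79b was at 0 to 0.126 FPKM in Sham and 0.307 to 1.15 in TBI, and Cd22, which had no Sham value above 0.315, was the single tested B cell gene and rose by 1.57 (limma adjusted p 0.0117). T cell genes, 10 in number, summed to 4.52 to 6.0, 10 to 14.5 and 6.32 to 10.1 FPKM, most of it Lag3.

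Against the homeostatic microglia genes the 4 called genes rose by about as much or more. The mean of the 10 microglia genes relative to Sham was 1.63, 1.73 and 1.10 in the TBI libraries and 1.02, 0.53 and 1.07 in those of C-β-LG/DSF, on the log2 scale. H2-Ab1 exceeded that mean by 0.47, 0.17 and 1.02 in TBI and by 0.13, 0.04 and 0.02 in C-β-LG/DSF. The added 0.5 shrinks the rise of H2-Ab1, at 0.317 to 0.769 FPKM in Sham, more than that of the more abundant microglia genes. Over the alternative settings its C-β-LG/DSF minus Sham difference ran from 0.63 to 1.33. Its small treated excess therefore depends on the scale and does not show an equal rise. Cd74 exceeded it by 1.30, 0.05 and 0.92 in TBI and by 0.35, 0.58 and 0.19 in C-β-LG/DSF. H2-Aa exceeded it by 0.12 to 0.80 in TBI and, after treatment, by 0.38 to 0.46, with the groups overlapping.

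Per unit of Csf1r, a receptor that microglia and macrophages share, Cd86 stood at 0.0152 to 0.0230 for Sham, 0.0332 to 0.0410 for TBI and 0.0321 to 0.0344 for the treated libraries as a ratio of FPKM. The ratio of H2-Ab1 to Csf1r was 0.0130 to 0.0291 for Sham, 0.0334, 0.0338 and 0.0577 for TBI and 0.0215 to 0.0283 for the treated libraries. The Cd86 ratio of the treated libraries thus overlapped that of TBI and lay above Sham, whereas the H2-Ab1 ratio of the treated libraries lay below TBI and within the range of Sham. H2-Aa, the partner chain, was like Cd86, with ratios of 0.00917 to 0.0131 for Sham, 0.0225 to 0.0355 for TBI and 0.0222 to 0.0271 for the treated libraries. That of Cd74 overlapped among all groups (0.065 to 0.139, 0.107 to 0.207 and 0.118 to 0.135), so the class II genes did not share a pattern per unit of Csf1r. These ratios are descriptions, without a test.

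**Figure D4:**
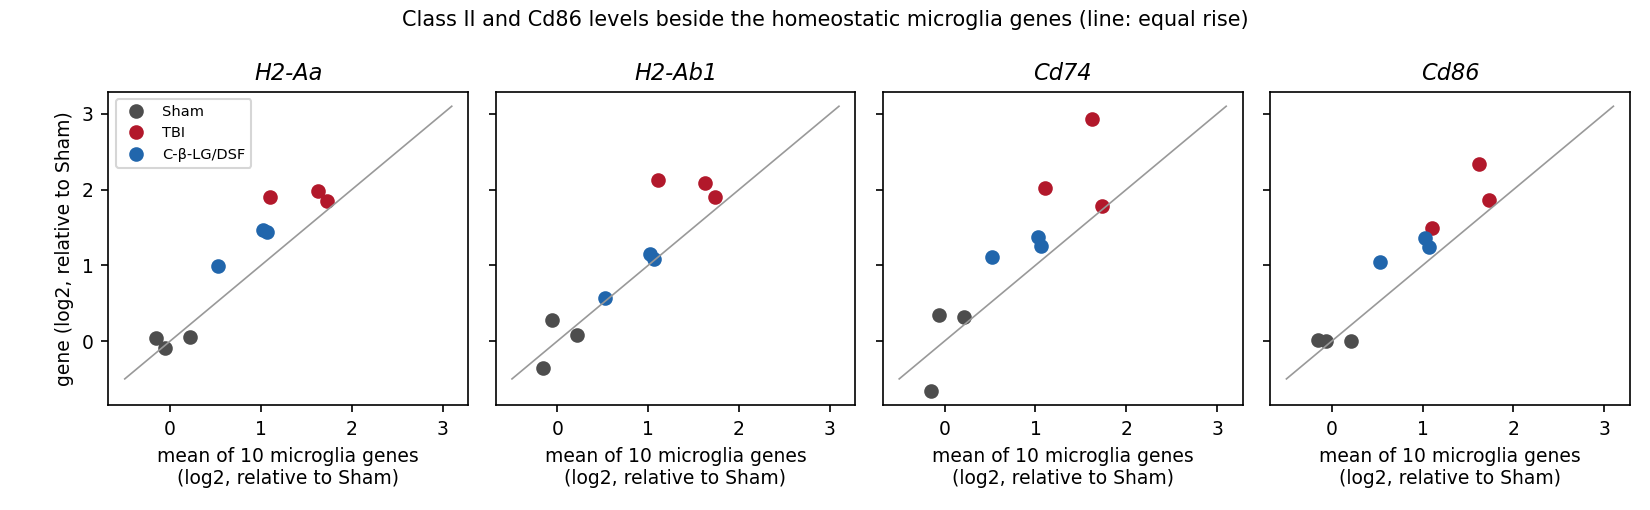
Level of H2-Aa, H2-Ab1, Cd74 and Cd86 (y axes) against the mean of 10 homeostatic microglia genes (x axes), both as log2(FPKM + 0.5) relative to Sham, with 1 point a library and a line of equal rise. The 6 injured libraries lie on or above the line in all 4 panels, and the treated points of H2-Ab1 lie within 0.13 of it. That distance depends on the added 0.5, which shrinks the rise of genes low in Sham such as H2-Ab1.

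Profiles over the 9 libraries were compared by the root-mean-square difference of log2(FPKM + 0.5), each gene relative to its own Sham mean, among 13170 genes. The class II profile, the mean of H2-Aa, H2-Ab1, H2-Eb1 and Cd74, stood at 2.60, 1.54 and 1.36 in TBI and 1.21, 1.04 and 1.15 in C-β-LG/DSF. Its decline across the TBI libraries came mainly from H2-Eb1 (3.38, 0.63 and -0.59) and from the high Cd74 of TBI 1, since H2-Aa and H2-Ab1 were nearly level there. Nearest to it were Pros1 (0.106), Lpxn (0.130), Lcp2 (0.135), Tgfb1 (0.137) and Gsdmd (0.140). Nearest to Cd86 were Tcirg1 (0.071), Gsdmd (0.109), Lcp2 (0.134), Nfam1 (0.146) and Btk (0.155). Lcp2 and Gsdmd stood on both lists.

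Pros1, at 0.106 the nearest to the class II profile, encodes the blood and tissue protein S. It was at 4.01, 4.80 and 3.30 FPKM in Sham, 25.8, 12.9 and 10.3 in TBI and 9.68, 7.54 and 10.8 in C-β-LG/DSF. Tcirg1, a subunit of the proton pump of lysosomes, was at 5.29, 5.25 and 5.52 FPKM in Sham, 28.9, 21.9 and 15.0 in TBI and 13.7, 11.4 and 15.0 in C-β-LG/DSF. As with Cd86, its TBI 1 value was the highest and TBI 3 the lowest of the group. Among the members, Cd86 was itself 0.214 from the class II profile, nearer than Cd74 (0.304), H2-Aa (0.354), H2-Ab1 (0.376) and H2-Eb1 (0.815), which are part of it, while H2-DMa (1.12) and Ciita (1.13) were farthest. Ciita, at most 0.428 FPKM, can move little on this scale, so its distance reflects its low level and not its pattern alone.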

How the data were processed

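Per the labels, RNA was isolated by Trizol and libraries were prepared by a stranded total RNA kit from Illumina. The authors deposited FPKM with a lower and an upper bound per gene and library; HISAT2 2.1.0 and Cufflinks 2.2.1 are named in the submitters' processing notes. The genome build is not given in the sources used here; 22452 of 22482 gene identifiers were found in GENCODE M21 (GRCm38), 22446 at overlapping positions. Starts were moved to count from 1, 26 symbols turned into dates were restored, 23 second entries of a symbol were told apart by identifier, and 1 emptied entry was dropped.

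Genes at an FPKM of at least 0.5 in at least 3 of 9 libraries (14292) were fitted as log2(FPKM + 0.5) with limma (version 3.58.1, R 4.3.3). Each group had its own mean and 6 residual degrees of freedom were left. Variances were moderated along a mean trend, with two-sided tests and Benjamini-Hochberg adjustment over all tested genes within a comparison. Called means an adjusted p under 0.05. For a gene on its own, an exact permutation test of 3 against 3 libraries gives at best a p of 0.1. The procedure was tested on simulated data. Alternatives were other pseudocounts, filters, scalings, variance models and sample sets, and leaving out each library.

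The 8 members are always named. From each list the text names up to 3 genes of smallest p in TBI against Sham and a few preset genes. Genes alike in profile are the 5 nearest, predicted genes passed over. Dexi, Mrc1, Lyz2, Fscn1, Xcr1, Clec9a, Ccr7, Ms4a1, Cd79b, Cd22, Cd3d, Cd3g, Ly6c2, Ccr2 and Csf1r are named as neighbours or markers. A few listed genes are not reported here. Members and lists were chosen with earlier results of these data known. Promoter windows are from RefSeq (GRCm38.p6) and were examined by member for 4 of the 8, chromosome 18 with Cd74 being left out.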

Additional observations from a re-analysis of the deposited data

How the results depend on the processing

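Over 21 gene results and 18 alternatives each, 353 of 378 values kept their direction and their side of the threshold. The sign of H2-Eb1 in C-β-LG/DSF against TBI turned with a pseudocount of 0.1 (0.25) and with equal totals (0.14), and ran from -0.96 to 1.03 when single libraries were left out. That of H2-DMa turned with a pseudocount of 1 (-8e-04), ran from -0.32 to 0.21 when single libraries were left out, and was -0.12 without the 3 libraries high in thalamic markers. Genes called in C-β-LG/DSF against TBI numbered 2 with no filter, 1 with no mean trend, 1 without those 3 libraries, and 0 to 2 leaving out single libraries. In C-β-LG/DSF against Sham they numbered 3444 with the groups compared fitted alone, 271 without those 3 libraries, and 660 to 2931 leaving out single libraries, and in TBI against Sham 2242 to 4373. Members called in C-β-LG/DSF against Sham numbered 2 with quantile normalization (H2-Ab1 at an adjusted p of 0.102 and Cd74 at 0.0612 in limma), 1 without those 3 libraries, and 2 to 4 leaving out single libraries. In TBI against Sham the range was 4 to 6, and in C-β-LG/DSF against TBI it was 0 throughout. The cause of these shifts was not tested. Higher and lower calls in TBI against Sham were split 2127 to 1709, 1581 to 1895 with quantile normalization and 2478 to 1439 with equal totals, which moved the median of all genes in C-β-LG/DSF against Sham to 0.10 and its split from 911 and 984 to 1402 and 699. Deviations of same-numbered libraries correlated at -0.095 to 0.326, so the numbers are not taken to pair samples. With the replicate number as a block, 3519 genes were called for TBI against Sham, 0 for treated against untreated injury and 1627 for treated tissue against Sham, with 4, 0 and 4 members. Depth is unknown, and most values below 1 FPKM have an authors' interval that reaches 0.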
